A study of Homo sapiens with 12 samples.

Results

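The genes described here are 34 genes of glycolysis and of the transcriptional response to low oxygen, set as a list of named genes with no threshold on their values, out of 19907 gene symbols in each RNA-seq library, of which 18579 were tested. They comprise 3 transporters of glucose and lactate, 16 glycolytic enzymes, 3 switches that set the flux through glycolysis or away from it, 2 hypoxia-inducible factor (HIF) subunits, 4 oxygen-dependent hydroxylases and related enzymes, and 6 other hypoxia-response genes. All 34 were in the files and all 34 were tested. These genes, and the other lists counted below, were chosen with earlier results of these data known. Their counts set beside those of all genes are therefore descriptions. The cells were MDA-MB-231, an established human triple-negative breast cancer (TNBC) line that expresses the glucocorticoid receptor (GR). The wt-GR cells were a non-targeted clone recovered from the CRISPR population, and the S134A-GR cells were clone #1, a single clone in which both alleles of the GR gene, NR3C1, carry S134A, a change of a serine to alanine. Cells of either line spent 18 h in starvation medium with 1% DCC (charcoal-stripped serum) and then 6 h with vehicle or with 10 ng/mL TGFβ1, and no GR ligand was added to any group. Each of the 4 groups had 3 replicates. The oxygen level of the cultures is not given in the sources used here.

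Glycolysis converts glucose to pyruvate, and lactate dehydrogenase and the lactate exporter dispose of that pyruvate when it is not burned in mitochondria. HIF is a dimer of an oxygen-labile alpha subunit, HIF1A or EPAS1 (HIF2), with a stable beta subunit. In oxygen, prolyl hydroxylases of the EGLN family mark the alpha subunits for destruction, and when oxygen is short the dimer accumulates and raises the transcription of glycolytic enzymes, glucose transporters, carbonic anhydrases and several of its own hydroxylases. Tumour cells often run glycolysis at a high rate even in air, so that many of these genes are abundant in cultured cancer lines. Much of this control acts on protein, which RNA-seq does not measure.

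Recovered library totals ranged from 56362036 to 129832227 reads. Each total exceeds the average number of reads per sample that the paper states for its paired-end sequencing. Whether both reads of a pair were counted is not given in the sources used here. The deposited values are normalised read counts, and a floor of 3 reads corresponded to between 2.146 and 4.888 normalised read counts. That floor covers counting error only, and the lowest value of any member in any library, 441 normalised read counts for EGLN3, lay far above it. NR3C1, the edited gene, was measured at 8336 to 12729 normalised read counts and was lower in S134A-GR cells under both treatments (log2 difference −0.41 ± 0.07 (SE) under vehicle and −0.31 ± 0.07 under TGFβ1, adjusted p = 0.00012 and 0.0013 in limma). On western blots the paper found total GR protein to be equal across its wt-GR and S134A-GR lines, which is a measure of protein and not of RNA. A gene-level count does not check the edited codon. Of 12 markers listed to check the line and other cell types, 11 were in the files and PGR was not analysed here. VIM, CD44, EGFR and SPARC were abundant, while ESR1, CDH1 and PTPRC had at most 12.47 normalised read counts in any library. KRT8, an epithelial keratin, was abundant (59198 to 75095 normalised read counts), and the epithelial marker EPCAM was lower in S134A-GR than in wt-GR cells (log2 difference −1.44 under vehicle and −1.58 under TGFβ1). PECAM1 (746.1 to 1454 normalised read counts) and PDGFRB (1844 to 4006) were detected in every library, and their part in the results was not tested. At an FDR under 0.05, 6 of the 11 markers rose with TGFβ1 and 1 fell in wt-GR cells (11.2% and 9.82% of all genes tested). Of the 6, 1 rose at least 2-fold (1.18% of all genes). In S134A-GR cells 5 rose and 1 fell (10.0% and 8.69%). The response was lower in S134A-GR cells for 1 marker (0.248% of all genes). In bulk RNA, fewer cells that express a gene and less of its RNA per cell cannot be told apart. Each line is 1 clone, so the mutation and the clone cannot be told apart, and nothing in the labels says that replicates were separate cultures, in which case p-values measure only the spread between these samples.

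Most members were lower in S134A-GR than in wt-GR cells, whether or not TGFβ1 was present. Under vehicle 24 of the 34 were lower and 7 were higher at an FDR under 0.05, where 26.5% of all genes tested were lower and 25.0% were higher. Under TGFβ1 23 were lower and 7 were higher, where 25.7% of all genes were lower and 23.1% were higher. The median log2 difference of the members was −0.22 under vehicle and −0.21 under TGFβ1, while the median of all genes tested was 0.019 and 0.012. Without overlap between the lines, 25 members lay below and 7 above under vehicle, and 23 below and 8 above under TGFβ1. Such separation was common: 29.14% of all genes tested lay below and 28.18% above under vehicle, and 28.65% and 26.94% under TGFβ1. Members are abundant genes, and among the 10091 genes at least as abundant as the lowest member 37.68% were lower and 29.05% higher under vehicle, and 35.96% lower and 28.1% higher under TGFβ1. Members other than EGLN3 and ANKRD37 ranked 6205 or better among the 19907 symbols by mean. The 10091 genes were therefore not matched to the members in abundance. Differences were small: EPAS1 and ADM were at least 2-fold lower in S134A-GR cells under both treatments, where 4.45% (vehicle) and 4.58% (TGFβ1) of all genes were, and no member was at least 2-fold higher. The 7 genes higher in S134A-GR cells were the same under both treatments: HK1, PFKM, PFKP, ENO2, PFKFB3, P4HA1 and ANKRD37. Of those lower, 22 were lower under both treatments, PFKFB4 and EGLN1 under vehicle alone and NDRG1 under TGFβ1 alone, and of these 3 genes the test of the difference between treatments passed for none.

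**Figure D1:**
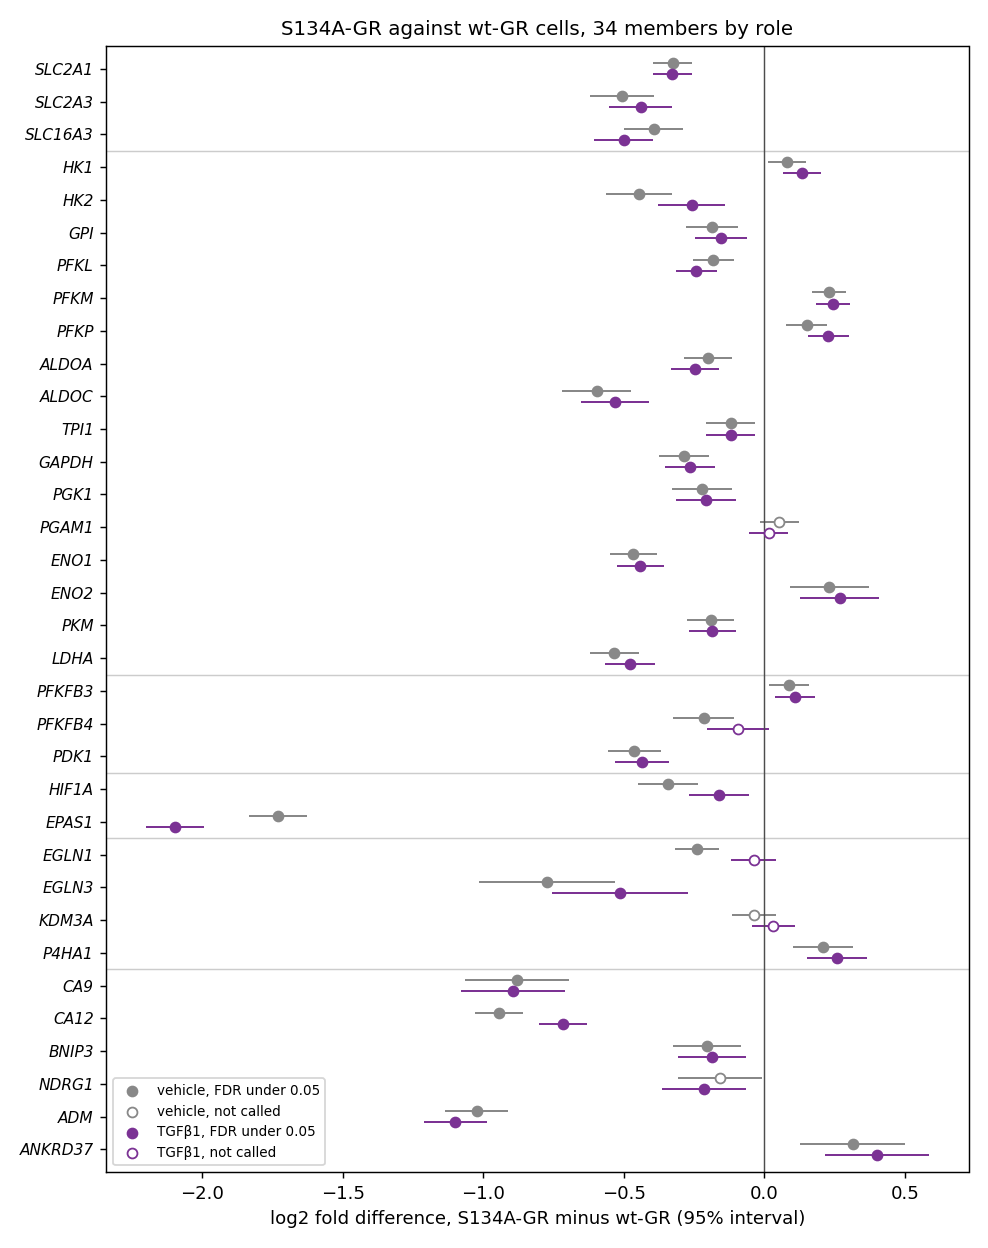
Log2 fold difference between S134A-GR and wt-GR cells for each of the 34 members, grouped by role from transporters (top) to other hypoxia-response genes (bottom); grey is vehicle, purple is TGFβ1, bars are 95% intervals, and filled points passed an FDR of 0.05. Most points lie left of 0, with EPAS1 lowest at −1.73 and −2.10, and 7 genes lie to the right under both treatments.

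TGFβ1 raised a part of the list in both lines, led by the glucose transporter SLC2A1. In wt-GR cells 12 members rose and 2 fell, where 11.2% of all genes rose and 9.82% fell. In S134A-GR cells 15 rose and 1 fell, where 10.0% of all genes rose and 8.69% fell. Among the 10091 genes at least as abundant as the lowest member, 17.94% rose and 13.17% fell in wt-GR cells, and 16.65% rose and 11.16% fell in S134A-GR cells. These genes were not matched to the members in abundance. The median log2 change of the members was 0.081 in wt-GR and 0.14 in S134A-GR cells, against −0.0046 and −0.0097 over all genes tested. TGFβ1 libraries lay above vehicle libraries without overlap for 17 members and below for 2 in each line. Over all genes tested, 16.94% lay above and 16.94% below in wt-GR cells, and 18.15% and 17.4% in S134A-GR cells. No member rose at least 2-fold in either line, where 1.18% of all genes did in wt-GR and 0.764% in S134A-GR cells. In all 11 members rose in both lines, namely SLC2A1, SLC16A3, HK1, PGK1, PGAM1, LDHA, PFKFB3, PFKFB4, PDK1, EPAS1 and KDM3A, and PFKM fell in both. Across the 34 members the changes in the 2 lines, which share no library, had Pearson's r = 0.879 and Spearman's rho = 0.808, with the same sign for 31 members. These are descriptions across genes, which are not independent replicates, and the same agreement over all genes tested was not computed. Without the library S134A-GR TGFβ1 3, SLC2A3, TPI1, P4HA1 and NDRG1 also rose in S134A-GR cells (adjusted p = 0.0396, 0.0271, 0.0017 and 0.0042, limma). Without other single libraries their adjusted p reached 0.55, 0.26, 0.19 and 0.48.

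**Figure D2:**
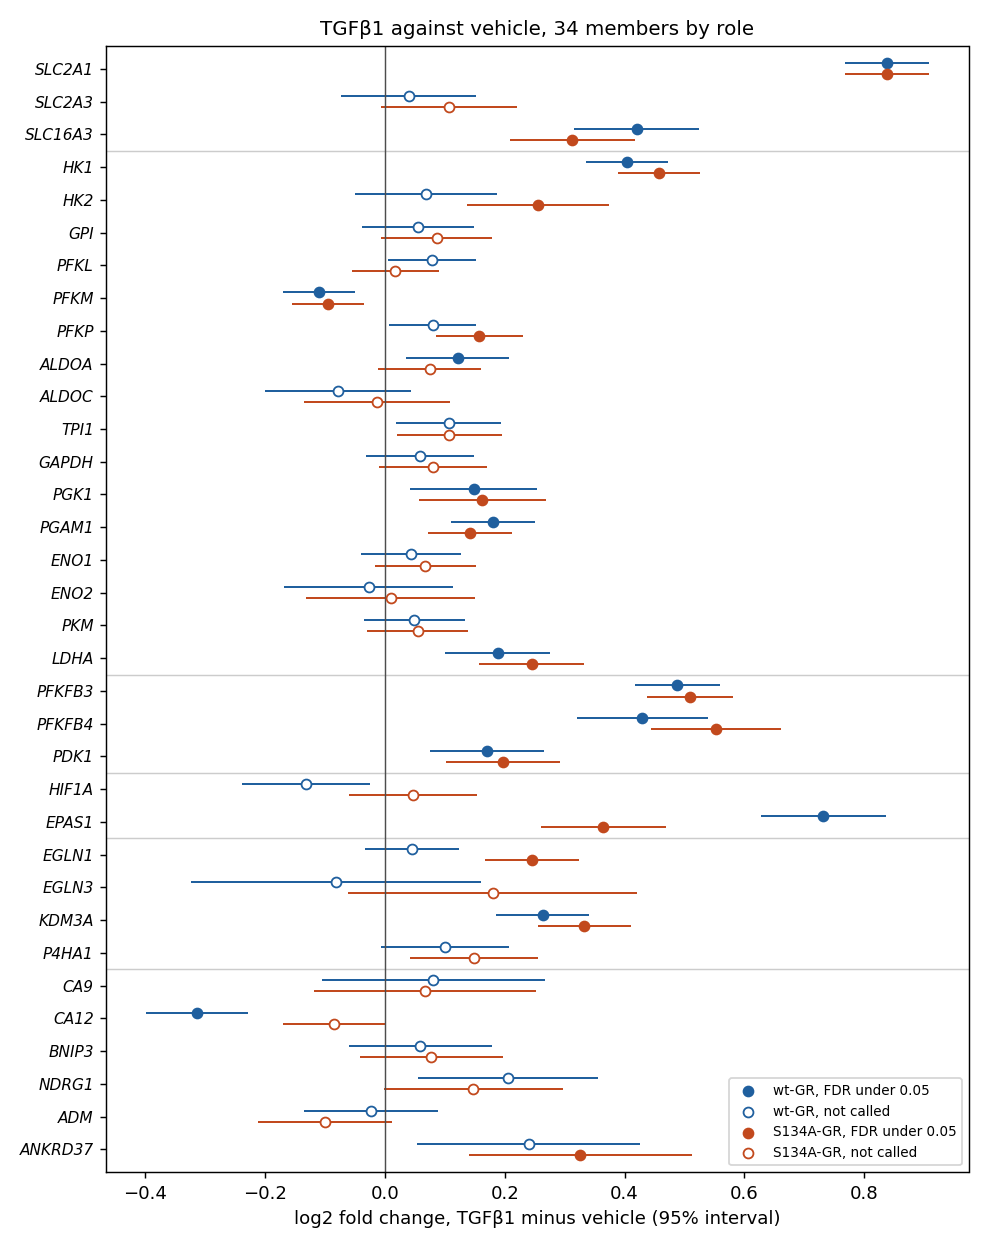
Log2 fold change after TGFβ1 for each of the 34 members in wt-GR (blue) and S134A-GR cells (orange), in the same order by role; bars are 95% intervals and filled points passed an FDR of 0.05. SLC2A1 lies at 0.84 in both lines, and EPAS1 is the member whose intervals in the 2 lines are farthest apart.

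Among the transporters, SLC2A1 (GLUT1), the basal glucose carrier of most cells, was lower in S134A-GR cells and was the member with the largest response to TGFβ1. SLC2A1 (chr1:42925353-42958893, minus strand, GRCh38) had 43984, 44262 and 45144 normalised read counts in the vehicle-treated wt-GR libraries and 80853, 78226 and 79475 after TGFβ1. The S134A-GR libraries had 35418, 35977 and 34966 under vehicle and 65039, 64331 and 60795 under TGFβ1. None of the 4 groups overlapped, and the order was the same within each treatment and within each line. TGFβ1 raised SLC2A1 by 0.84 ± 0.03 (log2, SE) in wt-GR cells and by 0.84 ± 0.03 in S134A-GR cells (adjusted p = 2.86e-10 and 4.11e-10, limma), a fold of 1.79 in each. The lines differed by −0.33 ± 0.03 under each treatment (adjusted p = 1.33e-06 and 1.45e-06). The difference between the responses was −0.00088, with a 95% interval from −0.10 to 0.098.

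SLC2A3 (GLUT3), a carrier with high affinity for glucose, had 7683, 8009 and 7393 normalised read counts in the vehicle-treated wt-GR libraries and 7949, 8273 and 7512 after TGFβ1. S134A-GR cells gave 5382, 5491 and 5354 under vehicle and 6238, 5885 and 5381 under TGFβ1. All 6 S134A-GR libraries lay below all 6 wt-GR libraries, and the treatments overlapped within each line. The log2 difference between the lines was −0.51 ± 0.05 under vehicle and −0.44 ± 0.05 under TGFβ1 (adjusted p = 1.94e-06 and 8.31e-06, limma). In the SLC2A3 transcript, 12.04% of the 75-base stretches occur elsewhere in the genome, so some of its reads could belong to a near copy.

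SLC16A3 (MCT4), the lactate exporter of glycolytic cells, had 54270, 54952 and 57998 normalised read counts in the vehicle-treated wt-GR libraries and 78305, 75887 and 69722 after TGFβ1. In S134A-GR cells it had 42376, 44390 and 40549 under vehicle and 52987, 54584 and 50519 under TGFβ1. It was lower in S134A-GR cells without overlap under either treatment (log2 −0.39 ± 0.05 and −0.50 ± 0.05, adjusted p = 1.04e-05 and 1.14e-06, limma) and rose with TGFβ1 in both lines (0.42 ± 0.05 and 0.31 ± 0.05). On the opposite strand CSNK1D overlaps 18.55% of its exon bases, and the strand setting of the counting is not given in the sources used here. CSNK1D averaged 17062 normalised read counts in wt-GR and 16386 in S134A-GR cells under vehicle.

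Glycolytic enzymes were among the most abundant RNAs of these cells: GAPDH, PKM and ENO1 ranked 2, 3 and 5 among the 19907 symbols by mean normalised read count. The 16 enzymes together took 3.01% to 3.16% of all normalised counts in the wt-GR vehicle libraries and 3.05% to 3.18% under TGFβ1. In S134A-GR cells they took 2.70% to 2.72% under vehicle and 2.68% to 2.84% under TGFβ1, below every wt-GR library. By gene, 11 of the 16 were lower in S134A-GR cells under each treatment, 4 were higher and PGAM1, phosphoglycerate mutase, did not pass. The log2 differences ranged from −0.60 to 0.23 under vehicle and from −0.53 to 0.27 under TGFβ1. TGFβ1 raised 5 and lowered 1 of the 16 in wt-GR cells, and raised 6 and lowered 1 in S134A-GR cells.

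LDHA, the lactate dehydrogenase subunit that favours the reduction of pyruvate to lactate, lies at chr11:18394560-18408425 on the plus strand. It had 216778, 224713 and 224789 normalised read counts in the vehicle-treated wt-GR libraries and 256441, 258070 and 244796 after TGFβ1. The S134A-GR libraries had 150879, 156233 and 152816 under vehicle and 187582, 186693 and 171183 under TGFβ1. The 4 groups did not overlap, with both S134A-GR groups below both wt-GR groups. LDHA showed a log2 difference between S134A-GR and wt-GR cells of −0.53 ± 0.04 under vehicle and −0.48 ± 0.04 under TGFβ1 (adjusted p = 9.90e-08 and 3.09e-07, limma). It rose with TGFβ1 by 0.19 ± 0.04 in wt-GR and 0.24 ± 0.04 in S134A-GR cells (adjusted p = 0.0043 and 0.00067).

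ALDOC, the brain form of aldolase, which splits fructose 1,6-bisphosphate, had 20868, 22383 and 23019 normalised read counts in the vehicle-treated wt-GR libraries and 21421, 20065 and 21275 after TGFβ1. S134A-GR cells gave 14727, 14703 and 14342 under vehicle and 14720, 15700 and 13086 under TGFβ1. The lines did not overlap and the treatments did. Its log2 difference between the lines, −0.60 ± 0.06 under vehicle and −0.53 ± 0.06 under TGFβ1 (adjusted p = 8.15e-07 and 2.80e-06, limma), was the lowest of the 16 enzymes. ALDOA, the form found in most tissues, differed less (−0.20 ± 0.04 and −0.25 ± 0.04, adjusted p = 0.00072 and 0.00014). ALDOA had 144855, 144153 and 154517 normalised read counts in the vehicle-treated wt-GR libraries and 163194, 156476 and 162685 after TGFβ1. In S134A-GR cells ALDOA had 133003, 128495 and 124488 under vehicle and 136583, 139109 and 130818 under TGFβ1. The TGFβ1 groups of ALDOA overlapped the vehicle groups in S134A-GR cells and not in wt-GR cells.

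The other enzymes lower in S134A-GR cells under both treatments were HK2 (an inducible hexokinase), GPI (phosphoglucose isomerase), PFKL (the liver form of phosphofructokinase), TPI1 (triosephosphate isomerase), GAPDH (glyceraldehyde phosphate dehydrogenase), PGK1 (phosphoglycerate kinase), ENO1 (the common enolase) and PKM (pyruvate kinase), with log2 differences from −0.47 for ENO1 to −0.12 for TPI1 under vehicle. ENO1 had 474892 to 486147 normalised read counts in wt-GR and 346446 to 347594 in S134A-GR cells under vehicle. GAPDH, often used as a reference gene, had a log2 difference of −0.29 ± 0.04 under vehicle and −0.26 ± 0.04 under TGFβ1 (adjusted p = 4.83e-05 and 0.00011, limma), and its S134A-GR libraries lay below every wt-GR library. The enzymes higher in S134A-GR cells were HK1, the hexokinase of most tissues, PFKM and PFKP, the muscle and platelet forms of phosphofructokinase, and ENO2, the neuronal enolase. Their log2 differences ranged from 0.081 for HK1 to 0.23 for ENO2 under vehicle. PFKM was 11909 to 12011 normalised read counts in wt-GR and 13923 to 14208 in S134A-GR cells under vehicle, and 11033 to 11142 and 12962 to 13406 under TGFβ1. The TPI1 call was lost in 3 of 12 fits that left out 1 library under vehicle (adjusted p up to 0.075, without wt-GR vehicle 3) and in 3 of 12 under TGFβ1 (up to 0.11, without S134A-GR TGFβ1 3). The HK1 call under vehicle (adjusted p = 0.045) was lost in 9 of 12 such fits, with an adjusted p of up to 0.16 without S134A-GR vehicle 3.

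TGFβ1 raised HK1 by 0.40 ± 0.03 in wt-GR and 0.46 ± 0.03 in S134A-GR cells (adjusted p = 4.42e-07 and 1.50e-07, limma), the largest rise among the 16 glycolytic enzymes in each line. HK1 had 34276 to 35390 normalised read counts in the vehicle-treated wt-GR libraries and 45383 to 46410 under TGFβ1, and 36284 to 37429 and 48698 to 51859 in S134A-GR cells. PGAM1 rose by 0.18 and 0.14 and PGK1 by 0.15 and 0.16 in the 2 lines. Of the PGAM1 transcript, 87.67% of 75-base stretches occur elsewhere in the genome, and of TPI1 23.73%, so how reads were shared with their copies could set these values. PFKM fell by 0.11 in wt-GR and by 0.095 in S134A-GR cells. HK2 and PFKP rose in S134A-GR cells (0.26 and 0.16), and their changes in wt-GR cells were 0.069 and 0.080 (adjusted p = 0.44 and 0.12). The test of the difference in response did not pass for HK2 or PFKP. ALDOA rose by 0.12 in wt-GR cells (adjusted p = 0.044), and its change in S134A-GR cells was 0.075 (adjusted p = 0.23). The PGK1 call was lost in 9 of 12 fits without 1 library in wt-GR cells (adjusted p up to 0.18, without wt-GR vehicle 1) and in 4 of 12 in S134A-GR cells (up to 0.14, without S134A-GR TGFβ1 2). The ALDOA call was lost in 6 of 12 (up to 0.16, without wt-GR vehicle 2) and the PFKM call in S134A-GR cells in 5 of 12 (up to 0.12, without S134A-GR vehicle 1).

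All 3 switches of flux rose with TGFβ1 in both lines. PFKFB3 and PFKFB4 are bifunctional enzymes that make and break fructose 2,6-bisphosphate, the strongest activator of phosphofructokinase, and PDK1 phosphorylates pyruvate dehydrogenase and so keeps pyruvate out of mitochondria. PFKFB3 had 16408, 16156 and 15727 normalised read counts in the vehicle-treated wt-GR libraries and 22585, 22003 and 23161 after TGFβ1, and 17321, 16895 and 17040 and then 25119, 24206 and 23655 in S134A-GR cells. TGFβ1 groups lay above vehicle groups in both lines (log2 change 0.49 ± 0.03 and 0.51 ± 0.03, adjusted p = 1.02e-07 and 8.20e-08, limma). PFKFB4 had 12066, 12745 and 12613 in the vehicle-treated wt-GR libraries and 17256, 16195 and 16969 after TGFβ1, and 10428, 11266 and 10521 and then 15357, 17115 and 14831 in S134A-GR cells. It rose by 0.43 ± 0.05 and 0.55 ± 0.05 (adjusted p = 2.52e-05 and 2.56e-06), again without overlap between treatments. PDK1 rose by 0.17 ± 0.04 and 0.20 ± 0.04 (adjusted p = 0.014 and 0.0062), and without wt-GR vehicle 1 its call in wt-GR cells was lost (adjusted p = 0.055). Between the lines the 3 switches differed in direction. PDK1 was lower in S134A-GR cells (log2 −0.46 ± 0.04 and −0.44 ± 0.04, with 3430 to 3729 against 4810 to 5152 normalised read counts under vehicle). PFKFB4 was lower under vehicle (−0.22 ± 0.05) and under TGFβ1 differed by −0.094 ± 0.05 (adjusted p = 0.14). In fits that left out 1 library, the latter adjusted p ran from 0.014 (without S134A-GR TGFβ1 2) to 0.47. PFKFB3 was slightly higher (0.086 ± 0.03 and 0.11 ± 0.03). The PFKFB3 call between the lines was lost in 7 of 12 fits without 1 library under vehicle (adjusted p up to 0.13, without S134A-GR vehicle 1) and in 2 of 12 under TGFβ1 (up to 0.067, without wt-GR TGFβ1 2).

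EPAS1, the HIF2 alpha subunit, differed most between the lines of all 34 members. EPAS1 (chr2:46293667-46386697, plus strand, 16 exons) had 11029, 10960 and 10294 normalised read counts in the vehicle-treated wt-GR libraries and 17959, 17750 and 17885 after TGFβ1. In S134A-GR cells it had 3187, 3265 and 3274 under vehicle and 4480, 4228 and 3841 under TGFβ1. The highest S134A-GR library, at 4480, was below the lowest wt-GR library, at 10294. EPAS1 showed a log2 difference between S134A-GR and wt-GR cells of −1.73 ± 0.05 under vehicle and −2.10 ± 0.05 under TGFβ1, a 3.32-fold and a 4.28-fold lower level (adjusted p = 8.35e-12 and 1.70e-12, limma). By absolute log2 difference it ranked 904 of 18579 genes under vehicle and 513 under TGFβ1. TGFβ1 raised EPAS1 in both lines, by 0.73 ± 0.05 in wt-GR and 0.36 ± 0.05 in S134A-GR cells (adjusted p = 7.91e-08 and 9.63e-05).

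HIF1A, the other alpha subunit, differed far less. It had 37805, 38016 and 35038 normalised read counts in the vehicle-treated wt-GR libraries and 32821, 35547 and 32828 after TGFβ1. The S134A-GR libraries had 28292, 29540 and 29578 under vehicle and 32402, 29385 and 28674 under TGFβ1. The lines did not overlap within a treatment, whereas the treatments overlapped within each line. HIF1A was lower in S134A-GR cells under both treatments (log2 −0.34 ± 0.05 and −0.16 ± 0.05, adjusted p = 4.77e-05 and 0.014, limma), and the call under TGFβ1 was lost in 3 of 12 fits without 1 library (adjusted p up to 0.074, without wt-GR TGFβ1 2). Its change with TGFβ1 was −0.13 in wt-GR cells (adjusted p = 0.079) and 0.048 in S134A-GR cells (adjusted p = 0.59). In fits that left out 1 library, the adjusted p in wt-GR cells ran from 0.026 (without wt-GR vehicle 3) to 0.23. Per kilobase of reference transcript, EPAS1 stood at 22.3% ± 0.212 (SD, n = 3) of HIF1A in the vehicle-treated wt-GR libraries and 40.6% ± 2.06 after TGFβ1. In S134A-GR cells it stood at 8.52% ± 0.0899 and 10.6% ± 0.382. The ranges of these ratios did not overlap between any of the 4 groups.

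The response of EPAS1 to TGFβ1 was smaller in S134A-GR cells, and EPAS1 was the 1 member for which the test of the difference in response passed (−0.37 ± 0.07 on the log2 scale, adjusted p = 0.034, limma). Over all genes tested, 0.248% had a lower and 0.167% a higher response in S134A-GR cells at this FDR, and no member had a higher one. At an unadjusted p under 0.05 (limma) the difference passed for 5 of the 34 members and for 1728 of the 18579 genes tested. The EPAS1 call was lost in 8 of 12 fits that left out 1 library, with adjusted p from 0.065 (without S134A-GR TGFβ1 2) to 0.11 (without wt-GR TGFβ1 1), while the difference itself stayed between −0.42 and −0.31. Of the other members, EGLN1 (0.20, adjusted p = 0.17) and CA12 (0.23, adjusted p = 0.14) came nearest.

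**Figure D3:**
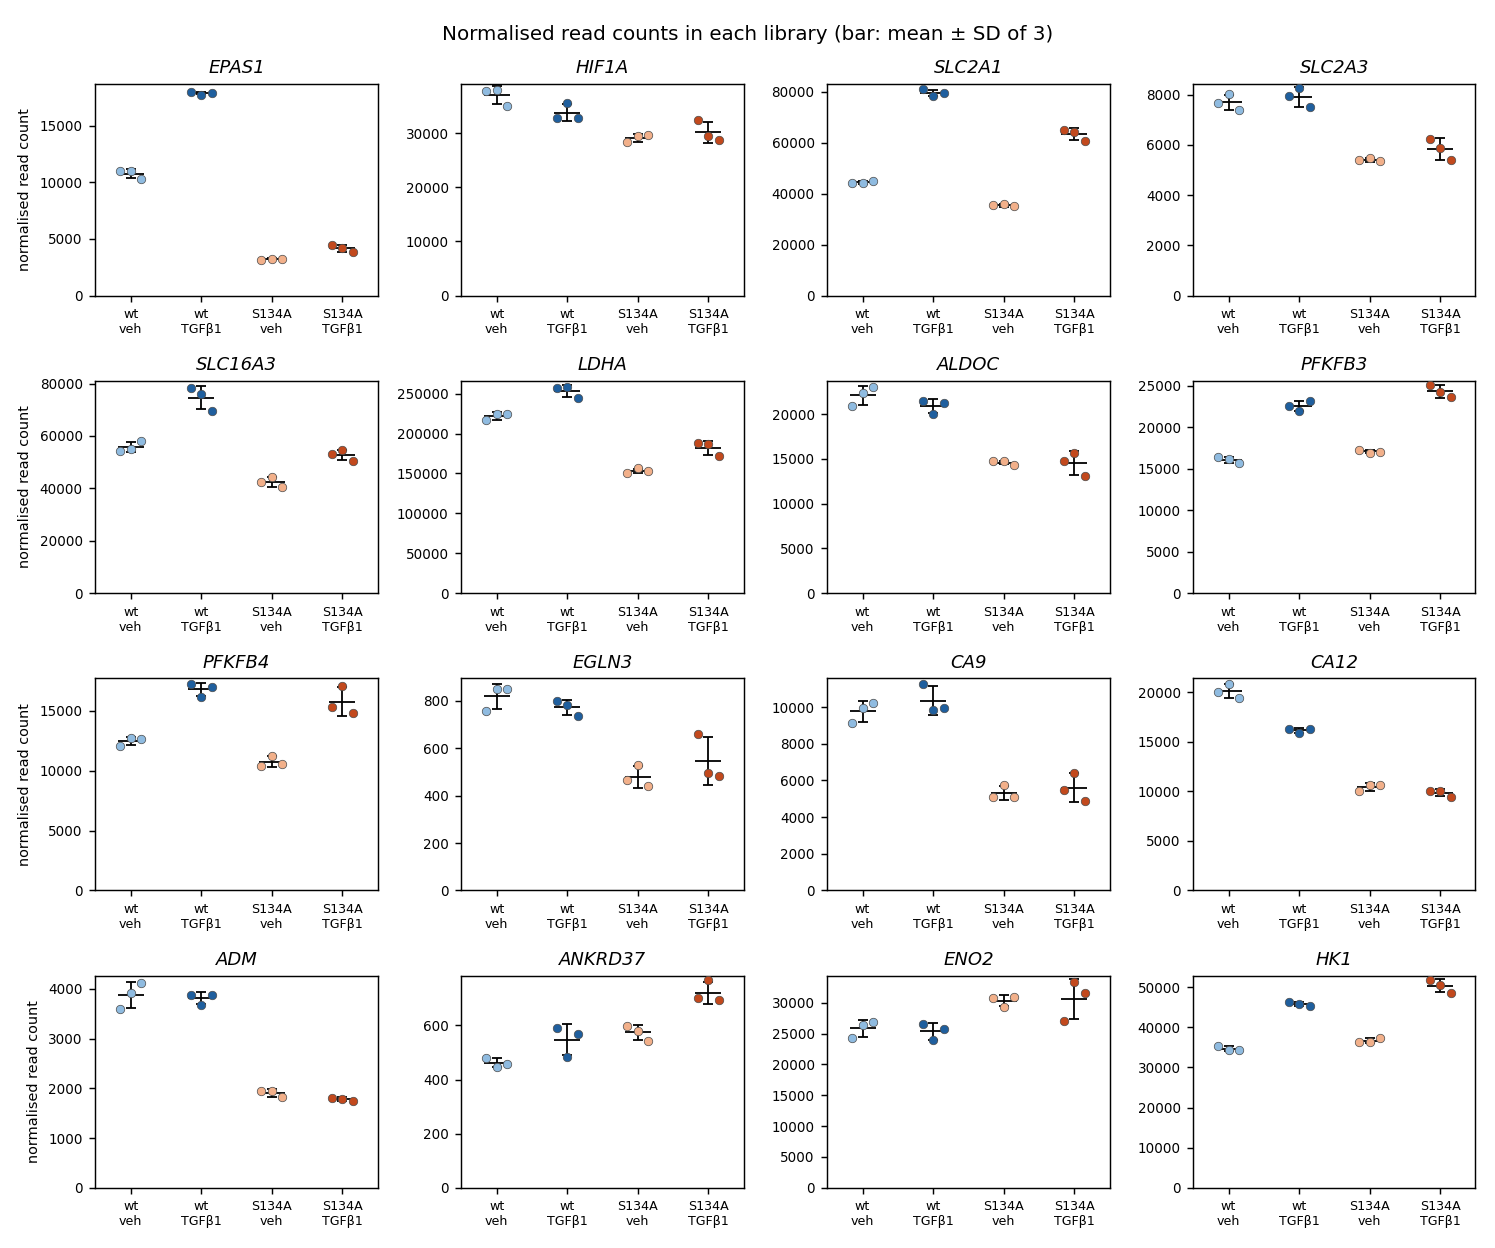
Normalised read counts of 16 members in each of the 12 libraries, from 0, by group on the horizontal axis (wt-GR then S134A-GR, vehicle then TGFβ1); points are libraries, bars the mean ± SD of 3. EPAS1 in S134A-GR cells does not pass 4480 while in wt-GR cells it is at least 10294, SLC2A1 steps up with TGFβ1 in both lines, and ADM, CA9 and CA12 separate by line.

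Of the 4 hydroxylases and their relatives, EGLN3 (PHD3), a prolyl hydroxylase that HIF itself induces, was lower in S134A-GR cells. It had 756, 849.7 and 849.7 normalised read counts in the vehicle-treated wt-GR libraries and 798.7, 782.8 and 737.4 after TGFβ1. S134A-GR cells gave 465.6, 530.2 and 441 under vehicle and 661.9, 496.1 and 482.1 under TGFβ1. The lines did not overlap, although the first S134A-GR TGFβ1 library came near the lowest wt-GR value. The log2 difference was −0.77 ± 0.11 under vehicle and −0.51 ± 0.11 under TGFβ1 (adjusted p = 4.78e-05 and 0.0016, limma). EGLN1 (PHD2), the main HIF prolyl hydroxylase in most cells, had 7567, 7840 and 7326 in the vehicle-treated wt-GR libraries and 7688, 8005 and 7763 after TGFβ1. In S134A-GR cells EGLN1 had 6252, 6550 and 6446 under vehicle and 7719, 7410 and 7703 under TGFβ1. EGLN1 was thus lower in S134A-GR cells under vehicle (−0.24 ± 0.04, adjusted p = 7.26e-05) and rose there with TGFβ1 (0.25 ± 0.04, adjusted p = 0.00025) to values that overlapped wt-GR cells.

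KDM3A, a histone H3 lysine 9 demethylase that depends on oxygen, rose with TGFβ1 in both lines (0.26 ± 0.04 and 0.33 ± 0.04, adjusted p = 0.00011 and 1.37e-05, limma). It had 7700 to 8028 normalised read counts in the vehicle-treated wt-GR libraries and 9291 to 9492 under TGFβ1, and 7305 to 7966 and then 9536 to 9784 in S134A-GR cells. The lines differed by −0.038 and 0.032, with 95% intervals from −0.12 to 0.040 and from −0.046 to 0.11. P4HA1, the collagen prolyl 4-hydroxylase subunit, was higher in S134A-GR cells (0.21 ± 0.05 and 0.26 ± 0.05, adjusted p = 0.0026 and 0.00057). The change of P4HA1 with TGFβ1 was 0.10 in wt-GR cells (adjusted p = 0.19) and 0.15 in S134A-GR cells (adjusted p = 0.0505).

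Of the other hypoxia-response genes, ADM, CA12 and CA9 stood out by line. ADM encodes adrenomedullin, a vasodilator peptide, and lies at chr11:10305073-10307397 on the plus strand. It had 3604, 3929 and 4120 normalised read counts in the vehicle-treated wt-GR libraries and 3886, 3686 and 3881 after TGFβ1. In S134A-GR cells it had 1944, 1957 and 1825 under vehicle and 1809, 1792 and 1738 under TGFβ1. The lines were apart by more than any spread within them, and ADM was 2.03-fold and 2.14-fold lower in S134A-GR cells (log2 −1.02 ± 0.05 and −1.10 ± 0.05, adjusted p = 1.92e-09 and 1.05e-09, limma). The change of ADM with TGFβ1 was −0.023 in wt-GR and −0.10 in S134A-GR cells (adjusted p = 0.81 and 0.22).

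CA9 and CA12 are carbonic anhydrases of the cell surface, which turn carbon dioxide and water into bicarbonate and acid. CA9 (chr9:35673928-35681159, plus strand) had 9141, 9939 and 10217 normalised read counts in the vehicle-treated wt-GR libraries and 11239, 9854 and 9919 after TGFβ1. The S134A-GR libraries had 5101, 5721 and 5096 under vehicle and 5487, 6421 and 4850 under TGFβ1, below every wt-GR library. The log2 difference was −0.88 ± 0.09 and −0.89 ± 0.09 (adjusted p = 1.13e-06 and 1.08e-06, limma), and the treatments overlapped within each line. ARHGEF39 overlaps 36.93% of the exon bases of CA9 on the opposite strand, and it averaged 1307 normalised read counts in wt-GR and 1555 in S134A-GR cells under vehicle. What this overlap adds to the CA9 values was not tested.

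CA12 (chr15:63321378-63381846, minus strand) had 20061, 20835 and 19412 normalised read counts in the vehicle-treated wt-GR libraries and 16292, 15861 and 16342 after TGFβ1. S134A-GR cells gave 9995, 10666 and 10685 under vehicle and 10028, 10083 and 9430 under TGFβ1. Both S134A-GR groups lay below both wt-GR groups, and TGFβ1 lowered CA12 in wt-GR cells without overlap. The log2 difference between the lines was −0.94 ± 0.04 under vehicle and −0.72 ± 0.04 under TGFβ1 (adjusted p = 3.09e-10 and 4.61e-09, limma). CA12 fell by 0.31 with TGFβ1 in wt-GR cells (adjusted p = 4.98e-05), and its change in S134A-GR cells was −0.086 (adjusted p = 0.16).

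The remaining 3 genes differed less. BNIP3, a mitophagy receptor, was lower in S134A-GR cells (−0.20 ± 0.06 and −0.19 ± 0.06, adjusted p = 0.0069 and 0.013, limma), a call that was lost under TGFβ1 without S134A-GR TGFβ1 3 (adjusted p = 0.070). Of its 75-base stretches, 20.71% occur elsewhere. NDRG1, a stress-response gene that hypoxia induces in many cell types, was lower under TGFβ1 (−0.21 ± 0.07, adjusted p = 0.020), with 47157 to 58869 against 60440 to 66460 normalised read counts. Under vehicle NDRG1 differed by −0.16 ± 0.07 (adjusted p = 0.075, and from 0.0098 without S134A-GR TGFβ1 3 to 0.20 in fits that left out 1 library). With TGFβ1, NDRG1 changed by 0.21 in wt-GR and 0.15 in S134A-GR cells (adjusted p = 0.0504 and 0.17). The first of these changes passed in 10 of 23 other settings, with adjusted p from 0.0051 to 0.19. The NDRG1 call under TGFβ1 was lost without wt-GR TGFβ1 1 or S134A-GR TGFβ1 3 (adjusted p = 0.087 and 0.084). ANKRD37, a small ankyrin-repeat protein induced by hypoxia, was the only 1 of these 6 that was higher in S134A-GR cells. It had 448.1 to 480.7 normalised read counts in wt-GR and 543.4 to 598.5 in S134A-GR cells under vehicle, and 481.8 to 592.1 and 693.9 to 767.4 under TGFβ1 (log2 0.31 ± 0.09 and 0.40 ± 0.09, adjusted p = 0.0073 and 0.0015). ANKRD37 changed with TGFβ1 by 0.24 in wt-GR cells (adjusted p = 0.066, and from 0.016 without wt-GR TGFβ1 2 to 0.24 in fits that left out 1 library). It rose in S134A-GR cells (0.33 ± 0.09, adjusted p = 0.017), a call lost without S134A-GR vehicle 3 or TGFβ1 2 (adjusted p = 0.074 and 0.070). UFSP2 overlaps 54.72% of the exon bases of ANKRD37 on the opposite strand and averaged 3337 normalised read counts in wt-GR and 3122 in S134A-GR cells under vehicle. What this overlap adds to the ANKRD37 values was not tested.

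Set side by side per kilobase of reference transcript, several isozyme pairs, but not all, shifted in proportion as well as in level. HK2 stood at 21.4% ± 1.72 (SD, n = 3) of HK1 in wt-GR cells given vehicle, 16.9% ± 0.439 under TGFβ1, 14.8% ± 0.0678 in S134A-GR cells under vehicle and 12.9% ± 0.576 under TGFβ1. These 4 ranges did not overlap. ENO2 stood at 4.19% ± 0.185 of ENO1 in wt-GR and 6.79% ± 0.195 in S134A-GR cells under vehicle, and at 3.99% ± 0.0906 and 6.55% ± 0.789 under TGFβ1. The ENO2 ratio separated the lines, with overlap between treatments within each line. PFKP was the most abundant phosphofructokinase, and PFKL stood at 26.01% ± 0.551 of it in wt-GR and 20.7% ± 0.417 in S134A-GR cells under vehicle. The ratio of PFKM to PFKP overlapped between the lines under TGFβ1 (13.46% to 14.44% in wt-GR and 13.72% to 14.39% in S134A-GR cells). CA9 against CA12 overlapped between the lines under both treatments (179.7% to 207.6% in wt-GR and 188.1% to 211.6% in S134A-GR cells under vehicle). SLC2A3 stood at 15.3% ± 0.769 of SLC2A1 in the vehicle-treated wt-GR libraries and 8.80% ± 0.505 after TGFβ1, with 13.5% ± 0.052 and 8.13% ± 0.329 in S134A-GR cells, so here the larger step was with treatment.

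**Figure D4:**
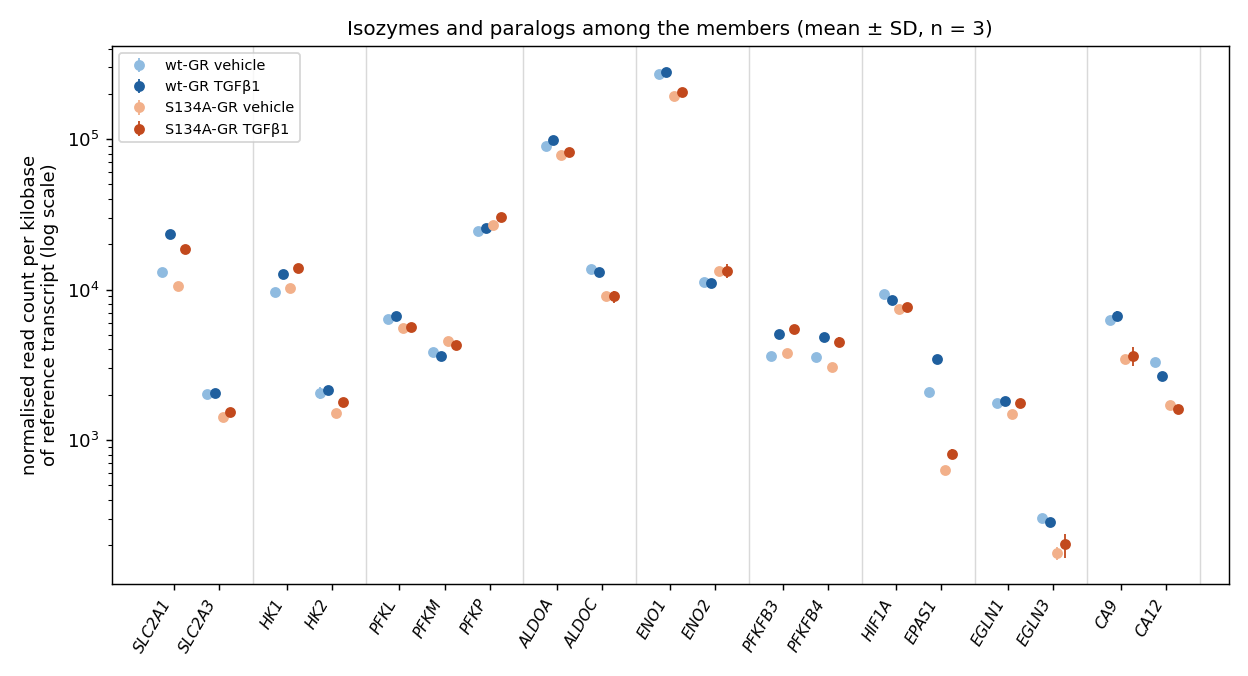
Mean ± SD (n = 3) of normalised read counts per kilobase of reference transcript, on a log scale, for the isozyme and paralog families among the members in the 4 groups. ENO1 is the highest and EGLN3 the lowest gene shown, and EPAS1 stands at 40.6% of HIF1A in wt-GR cells under TGFβ1 and at 10.6% in S134A-GR cells.

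Since HIF binds to DNA at a short core, the promoters of the members were searched for ACGTG on both strands, and separately for GCGTG. RefSeq promoters (GRCh38.p14, 250 bases before to 50 after the first start listed) matched 32 of the 34 members, all but SLC2A3 and NDRG1. ACGTG was present in 13 of these 32 (40.6%) and in 25% of the 12702 promoters of tested genes (21.6% of all 27305 promoters). GCGTG was present in 16 (50%) and in 47% of the promoters of tested genes (36.3% of all), so the members' share of GCGTG lay close to that of the tested genes. ACGTG occurred in the promoters of HK2, GPI, ALDOA, ALDOC, GAPDH, PGK1, ENO2, LDHA, EGLN1, P4HA1, CA9, BNIP3 and ANKRD37, and not in those of EPAS1 and ADM, which hold GCGTG. With it, 10 of 13 members were lower and 3 higher in S134A-GR cells under vehicle. Without it, 13 of 19 were lower and 4 higher. Median log2 differences were −0.22 in each set. The set without ACGTG includes promoters that hold GCGTG, so this split does not part members with a HIF core from members without. ACGTG or GCGTG was present in 24 of the 32 (75%), and in 59.1% of the promoters of tested genes (48.4% of all). With any of the listed starts counted, 19 of 32 members held ACGTG (59.4%), against 30.3% of tested genes and 24.9% of all genes, and 12 members have more than 1 listed start. More starts give more sequence to search, and how many tested genes have more than 1 was not counted. A match is a description of letters and not a site of binding.

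The stretches upstream of LDHA and ALDOC, lower in S134A-GR cells, and of ANKRD37, higher there, are shown because these 3 promoters hold the most matches upstream of the start. They run 5′ to 3′ on the gene's strand, are free of annotated exons, and have ACGTG, or its reverse complement CACGT, in capitals. They lie at chr11:18394313-18394559 (plus strand), chr17:28576949-28577145 (minus strand) and chr4:185396591-185396810 (plus strand).
LDHA: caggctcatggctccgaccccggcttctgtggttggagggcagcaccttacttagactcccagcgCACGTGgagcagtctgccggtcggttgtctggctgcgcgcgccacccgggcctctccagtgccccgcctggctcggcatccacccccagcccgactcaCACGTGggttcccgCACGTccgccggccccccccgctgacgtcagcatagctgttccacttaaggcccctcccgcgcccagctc
ALDOC: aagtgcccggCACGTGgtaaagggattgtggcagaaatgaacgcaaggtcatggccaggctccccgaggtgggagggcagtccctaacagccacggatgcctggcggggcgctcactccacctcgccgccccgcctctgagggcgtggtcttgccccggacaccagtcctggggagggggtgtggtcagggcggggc
ANKRD37: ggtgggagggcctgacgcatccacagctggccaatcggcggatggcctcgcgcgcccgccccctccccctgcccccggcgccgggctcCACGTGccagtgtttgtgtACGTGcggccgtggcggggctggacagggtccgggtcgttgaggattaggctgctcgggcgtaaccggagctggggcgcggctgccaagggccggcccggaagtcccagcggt
The LDHA stretch holds 5 matches, the ALDOC stretch 2 and the ANKRD37 stretch 3. In each of the 3, at least 1 pair of matches overlaps as the palindrome CACGTG, which was counted as 2 matches. The ALDOC promoter holds 3 matches upstream of the start, of which the match at −28 lies outside its stretch.

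Other genes of the same pathways, not among the 34, were counted from fixed lists in the same way, and the lists were not tested against the members. For these lists and those below, the shares of all genes tested were 26.5% lower and 25.0% higher in S134A-GR cells under vehicle. Under TGFβ1 they were 25.7% lower and 23.1% higher. With TGFβ1, 11.2% of all genes rose and 9.82% fell in wt-GR cells, and 10.0% rose and 8.69% fell in S134A-GR cells. No count of a list was tested against these shares. Of 27 other hypoxia-inducible targets tested, 15 were lower and 3 higher in S134A-GR cells under vehicle, and 15 lower and 6 higher under TGFβ1. With TGFβ1 13 rose and 1 fell in wt-GR cells, and 17 rose and 1 fell in S134A-GR cells. Among them BHLHE40, a transcriptional repressor, rose by 1.16 ± 0.04 and 1.35 ± 0.04 in wt-GR and S134A-GR cells (adjusted p = 8.32e-11 and 2.66e-11, limma), from 21481 to 22828 up to 47949 to 50962 normalised read counts in wt-GR cells. VEGFA, the angiogenic growth factor, was lower in S134A-GR cells (log2 −0.98 ± 0.08 under vehicle and −1.0 ± 0.08 under TGFβ1), with 18220 to 20310 against 9636 to 10084 normalised read counts under vehicle. PPP1R3C, a glycogen-targeting phosphatase subunit, was lower as well (−2.02 ± 0.22 and −1.77 ± 0.22), with 285.3 to 329.1 against 56.77 to 88.2 normalised read counts under vehicle.

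Of 19 other glycolysis and lactate genes tested, 4 were lower and 3 higher in S134A-GR cells under vehicle and 4 lower and 4 higher under TGFβ1, and 7 rose and 2 fell with TGFβ1 in wt-GR cells against 3 and 2 in S134A-GR cells. ENO3, the muscle enolase, had the higher level in S134A-GR cells given vehicle (1.11 ± 0.18, 369.9 to 446.5 against 812 to 902 normalised read counts). SLC2A10 was at 0 in all 6 S134A-GR libraries and at 4.212 to 14.8 normalised read counts in wt-GR libraries, close to the floor. Of 12 other oxygen sensing and HIF genes, 3 were lower and 4 higher under vehicle and 3 lower and 3 higher under TGFβ1, with 1 rising and 2 falling with TGFβ1 in wt-GR cells and 4 and 2 in S134A-GR cells. Here ARNT2, a beta subunit partner, was lower in S134A-GR cells (−1.42 ± 0.08 and −1.71 ± 0.08), at 1686 to 1822 against 600.4 to 672.6 normalised read counts under vehicle. EGLN2, the third HIF prolyl hydroxylase, was called higher in vehicle-treated S134A-GR cells (1.93 ± 0.52), but at 8.483 to 12.47 against 1.053 to 4.227 normalised read counts it lay near the floor.

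Of 12 genes for the entry of pyruvate into mitochondria, 5 were lower and 3 higher in S134A-GR cells under each treatment. DLAT, the E2 subunit of pyruvate dehydrogenase, was lower (−1.03 ± 0.04 and −0.93 ± 0.04), at 8836 to 9151 against 4294 to 4606 normalised read counts under vehicle. With TGFβ1 1 of the 12 rose and 4 fell in wt-GR cells, and 4 fell in S134A-GR cells. PDK4, another kinase of pyruvate dehydrogenase, fell with TGFβ1 by 1.24 and 0.996 in wt-GR and S134A-GR cells (725.5 to 813.1 down to 266.8 to 362.2 normalised read counts in wt-GR cells), whereas PDK1 rose. Of 11 genes of the pentose phosphate path and gluconeogenesis, 7 were lower and 1 higher under vehicle and 9 lower under TGFβ1, with 3 rising with TGFβ1 in wt-GR cells and 3 rising and 1 falling in S134A-GR cells. FBP1, which opposes phosphofructokinase, had 59.32 to 82.49 normalised read counts in wt-GR libraries and 0 to 6.236 in S134A-GR libraries. Its fitted log2 differences of −4.54 and −4.91 depend on the pseudocount, since the S134A-GR values lie at or near the floor.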

How the data were processed

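RNA-seq covered 2 clones of MDA-MB-231, wt-GR and S134A-GR, under vehicle or TGFβ1, with 3 replicates in each of 4 groups. The authors trimmed reads with Trimmomatic, checked them with FastQC (0.11.7 in the submitters' processing notes), used HISAT2 to place them on hg38, counted with featureCounts (Subread) and divided by DESeq2 (1.22.2) size factors, so the deposited values are a signal of normalised read counts per gene symbol, with nothing pooled. Annotation, strand, the counting of read pairs and the handling of multiply mapping reads are not given in the sources used here.

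In all 12 libraries 100% of values were whole multiples of 1 step (tolerance 0.01), which gave back the reads. Replicates differed by more than counting noise (chi-square over its degrees of freedom, 9.06 to 46.2). Genes with at least 10 reads in all were fitted as log2(value + 1) with limma 3.58.1 (R 4.3.3, trend, 4 group means in 1 model, two-sided tests, Benjamini-Hochberg over 18579 genes). Called means an FDR under 0.05, and fold changes on this scale understate changes of low genes. The fit was tested on simulated data. edgeR 4.0.16 and DESeq2 1.42.0 on recovered reads, other pseudocounts, filters, scalings and left-out libraries were alternatives. Members and lists were chosen with earlier results of these data known. Values per library are given for members with an absolute log2 change of at least 0.5 among those called in any comparison and for their paralogs, and genes of other lists are named from an absolute log2 change of at least 1. Gene positions, transcript lengths and 75-base repeats come from the GENCODE annotation and hg38, and promoters from RefSeq.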

Additional observations from a re-analysis of the deposited data

Results flagged for a closer look

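EPAS1, the HIF2 alpha subunit, differed between the lines in its response to TGFβ1: the difference in the log2 response, S134A-GR minus wt-GR, was −0.37 ± 0.07 (SE, adjusted p = 0.034, limma), with rises in the 2 lines of 0.36 and 0.73 on the log2 scale and TGFβ1 libraries above vehicle libraries in both. The call was lost in most fits that left out a single library, and at an FDR of 0.01. What sets the difference in response was not tested.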

How the results depend on the processing

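The counts of called members were recomputed under 23 other settings for the comparisons of lines and treatments and 22 for the difference in response. The counts stayed between 28 and 32 (31 in the report) and between 25 and 30 (30) for the lines under vehicle and TGFβ1, and between 10 and 17 (14) and between 13 and 19 (16) for TGFβ1 against vehicle in wt-GR and S134A-GR cells. No called member changed sign. For the difference in response the count of 1 became 3 with the Wald test of DESeq2, which added EGLN1 and CA12 (adjusted p = 0.042 and 0.024), and 0 at an FDR of 0.01. Leaving out 1 library at a time gave 0 to 1, and the cause was not tested. Replicate numbers are shared by the groups, but same-numbered libraries did not deviate together (mean r −0.03, range −0.16 to 0.19), and a replicate block gave 31, 30, 13, 16 and 1 called members. TMM scaling moved each library by a factor of 0.9925 to 1.011. Single calls were lost in at least 1 setting for HK1, TPI1 and PFKFB3 (lines, vehicle), for TPI1, PFKFB3, HIF1A, BNIP3 and NDRG1 (lines, TGFβ1), for PFKM, ALDOA, PGK1 and PDK1 (TGFβ1, wt-GR) and for PFKM, PGK1 and ANKRD37 (TGFβ1, S134A-GR). Calls were gained in at least 1 setting for NDRG1 in 4 (lines, vehicle), for PFKFB4 in 1 (lines, TGFβ1), for NDRG1 in 10, HIF1A in 3 and TPI1 and ANKRD37 in 2 each (TGFβ1, wt-GR), and for P4HA1 in 8, TPI1 in 2 and SLC2A3 and NDRG1 in 1 each (TGFβ1, S134A-GR). The lowest value of any member in any library was 441 normalised read counts, and the causes of lost and gained calls were not tested.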
